A study of Mus musculus with 12 samples.

Results

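A set of 10 immediate early genes of the AP-1 and EGR kind was followed across the series: the AP-1 subunit genes Fos, Fosb, Jun and Junb, the zinc finger factor genes Egr1, Egr2 and Egr3, the nuclear receptor gene Nr4a1, the nuclear protein gene Ier2, and Zfp36, which encodes tristetraprolin. They were listed by symbol, with earlier results of these data known, and are 10 of the 19505 genes measured. Each is represented by 1 transcript cluster (the set of probes that reads a gene), except Egr3, for which the brightest of 3 was used. The arrays read RNA from brain white matter cells that had been freed with papain, treated with an Fc receptor block and bound to beads against GLAST, the glutamate transporter that astrocytes carry. All mice were C57BL/6 and entered the study at 8 to 12 weeks of age. Wild-type mice were taken after 0, 3 or 12 weeks of a diet with 0.2% (w/w) cuprizone, a copper-binding toxin of oligodendrocytes, and mice lacking the glycosyltransferase GnT-IX after 12 weeks of the same diet, with 3 biological replicates and 1 array each in the 4 groups. The 0-week mice thus had no cuprizone. No untreated mice kept for 3 or 12 weeks were analysed here, so diet and age cannot be told apart. The allele behind the GnT-IX deficiency and whether animals were pooled are not given in the sources used here. Nor is it given which of the RNA kits named in the protocol, miRNeasy or NucleoSpin RNA XS, served which sample.

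Immediate early genes are transcribed within minutes of a stimulus, without new protein being made first. Signals through MAP kinases, calcium and cyclic AMP reach their promoters through factors that are already present, such as SRF with its ternary complex partners and CREB. Fos and Jun proteins pair to form AP-1, EGR proteins bind GC-rich sites, and tristetraprolin marks cytokine mRNAs for decay. In brain tissue these genes respond to injury, to neuronal activity and also to the dissociation of the tissue itself.

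The promoters of members whose levels the results turn on are shown here so that the elements named above can be seen. RefSeq's promoter table (GRCm38.p6) had an entry for 7 of the 10 genes. The sequences run up to the start site on the gene's own strand, except that of Egr2, a stretch of 30 bases from the third of 5 start sites listed. Capitals mark the core of the cyclic AMP response element (TGACG, or its complement CGTCA), the EGR site (GCGNGGGCG or its complement) and the CArG box, the site of SRF.
Fosb, chr7:19310046-19310165, minus strand: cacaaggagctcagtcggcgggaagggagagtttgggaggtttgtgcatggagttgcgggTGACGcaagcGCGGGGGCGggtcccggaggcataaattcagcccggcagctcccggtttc
Junb, chr8:84978749-84978868, minus strand: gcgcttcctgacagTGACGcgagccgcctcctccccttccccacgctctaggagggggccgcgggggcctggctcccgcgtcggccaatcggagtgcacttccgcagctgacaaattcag
Egr2, chr10:67537794-67537823, plus strand: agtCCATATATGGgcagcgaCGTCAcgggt
Zfp36, chr7:28379229-28379348, minus strand: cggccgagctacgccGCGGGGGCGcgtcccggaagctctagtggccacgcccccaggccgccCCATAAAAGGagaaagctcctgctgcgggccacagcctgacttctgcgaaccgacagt
Fos, chr12:85473770-85473889, plus strand: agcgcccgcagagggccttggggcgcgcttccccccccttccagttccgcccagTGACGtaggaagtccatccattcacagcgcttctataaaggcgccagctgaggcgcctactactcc
Nr4a1, chr15:101266726-101266845, plus strand: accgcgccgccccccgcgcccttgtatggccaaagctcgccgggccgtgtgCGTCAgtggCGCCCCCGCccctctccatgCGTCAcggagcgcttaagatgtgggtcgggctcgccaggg

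In the 250 bases before the start site, the core TGACG was found for Fosb, Junb, Egr2, Fos and Nr4a1, the EGR site for Fosb, Zfp36 and Nr4a1, and the CArG box for Egr2 and Zfp36. Both strands were searched. Among all 32851 promoters of that table, 17.8% held the core, 4.7% the EGR site and 1.47% the CArG box. The whole element TGACGTCA, which contains the core, and the AP-1 site TGANTCA were found in none of the 7, against 1.55% and 6.75% of all promoters. TATAAA, left in lower case above, occurred in Fos, and in 12.4% of all promoters. Jun had an entry but no match to any of these motifs. A match describes letters in the window and not binding.

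Values are on the log2 scale, where 1 unit is a 2-fold difference. Array medians lay between 5.38 and 5.45, and the correlation across genes between arrays of the same group was 0.974 to 0.985. Mgat5b, the gene of GnT-IX, lay between 3.70 and 4.19 in the GnT-IX-deficient arrays and between 5.57 and 5.96 in the 12-week wild-type arrays. At 0 weeks astrocyte markers averaged 9.51 and mature oligodendrocyte markers 9.74, both far above the array medians. In bulk RNA fewer cells of a type and less RNA per cell cannot be told apart. With 3 arrays a group precision is limited by their number. The p-values weigh each group difference against the spread between arrays within groups, pooled over the 4 groups and drawn towards that of all genes.

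Of the 10 genes, 4 rose in cells from mice fed cuprizone for 3 weeks and 5 in cells from mice fed it for 12 weeks, each against untreated mice. At 3 weeks these were Egr2, Junb, Egr1 and Fosb, and at 12 weeks Junb, Zfp36, Fosb, Egr2 and Egr1. Of all genes, 1.61% rose at 3 weeks and 2.11% at 12 weeks. Egr3 and Nr4a1 passed in neither comparison, and their values at 3 and 12 weeks lay close to those at 0 weeks. Between 3 and 12 weeks, and between GnT-IX-deficient and wild-type mice at 12 weeks, none of the 10 passed the threshold, an adjusted p under 0.05 over all genes. In these 2 comparisons 0.082% and 0.0256% of all genes passed. The values of every gene follow, by role, with replicates 1, 2 and 3 of each group in that order.

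**Figure D1:**
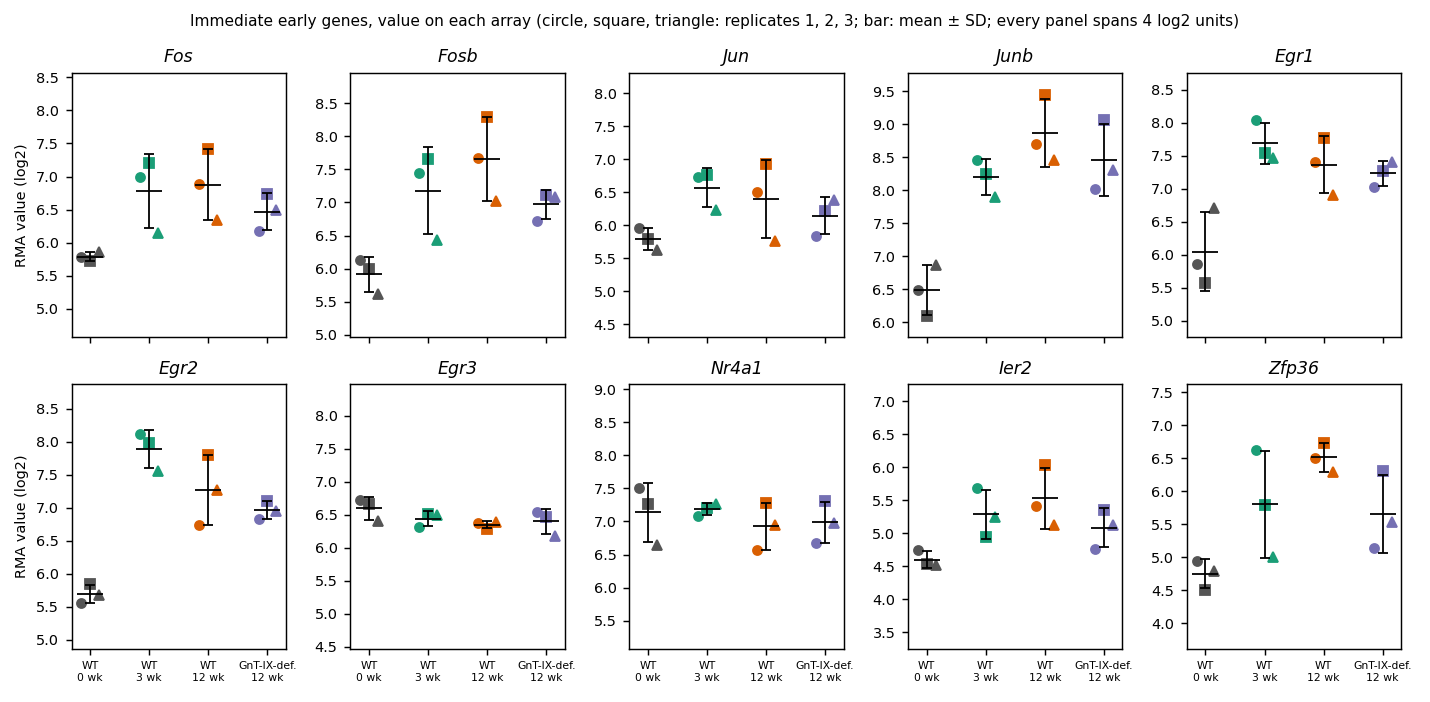
RMA values (log2, vertical axis) of the 10 immediate early genes on each of the 12 arrays, by group; circles, squares and triangles are replicates 1, 2 and 3, and bars are the mean ± SD of 3 arrays. For Egr2 the untreated arrays lie between 5.56 and 5.84 and all other arrays at 6.73 or above, while the groups of Egr3 and Nr4a1 overlap for the most part.

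Junb, an AP-1 subunit, read 6.49, 6.10 and 6.86 at 0 weeks, 8.45, 8.24 and 7.90 at 3 weeks, 8.70, 9.44 and 8.45 at 12 weeks and 8.01, 9.06 and 8.30 in GnT-IX-deficient mice. All 9 arrays from mice fed cuprizone lay above all 3 untreated arrays. It rose by 1.71 at 3 weeks (SE 0.30, adjusted p = 0.00592) and by 2.38 at 12 weeks (SE 0.30, adjusted p = 0.00115), where it ranked 13 of all genes by p. That rise at 12 weeks had a 95% interval of 1.75 to 3.01.

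Fosb, a Fos family subunit, read 6.13, 5.99 and 5.62 at 0 weeks, 7.45, 7.66 and 6.43 at 3 weeks, 7.67, 8.29 and 7.02 at 12 weeks and 6.72, 7.11 and 7.08 in GnT-IX-deficient mice. The untreated arrays were again below every other array, but replicate 3 was low within both the 3-week and the 12-week group. Fosb rose by 1.27 at 3 weeks (SE 0.32, adjusted p = 0.0450) and by 1.75 at 12 weeks (SE 0.32, adjusted p = 0.0101).

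Fos, another subunit of AP-1, read 5.78, 5.72 and 5.86 at 0 weeks, 7.0, 7.20 and 6.15 at 3 weeks, 6.88, 7.41 and 6.34 at 12 weeks and 6.17, 6.74 and 6.50 in GnT-IX-deficient mice. The untreated arrays lay close together and below all others. The difference from 0 weeks was 1.00 at 3 weeks (SE 0.28, 95% interval 0.40 to 1.60, adjusted p = 0.0708) and 1.09 at 12 weeks (SE 0.28, 95% interval 0.49 to 1.69, adjusted p = 0.0532), neither past the threshold. With 3-week replicate 3 left out it was 1.31 at 3 weeks (adjusted p = 0.0215), and over all 16 alternatives the adjusted p ran from 0.0215 to 1.

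Jun, the partner of the Fos proteins, read 5.96, 5.80 and 5.62 at 0 weeks, 6.73, 6.76 and 6.23 at 3 weeks, 6.50, 6.93 and 5.76 at 12 weeks and 5.84, 6.22 and 6.38 in GnT-IX-deficient mice. The 3-week arrays lay above the untreated ones, whereas the 12-week group overlapped them through replicate 3. Its differences of 0.78 at 3 weeks (SE 0.26, adjusted p = 0.130) and 0.60 at 12 weeks (SE 0.26, adjusted p = 0.284) did not pass.

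Egr2, a zinc finger factor best known from Schwann cells and hindbrain, read 5.56, 5.84 and 5.68 at 0 weeks, 8.12, 7.98 and 7.56 at 3 weeks, 6.73, 7.79 and 7.27 at 12 weeks and 6.83, 7.10 and 6.95 in GnT-IX-deficient mice. Untreated arrays were far below the rest, and the 3-week group was the highest. Egr2 rose by 2.19 at 3 weeks (SE 0.23, 95% interval 1.69 to 2.69, adjusted p = 0.000520), where it ranked 4 of all genes by p. At 12 weeks it rose by 1.57 against 0 weeks (SE 0.23, adjusted p = 0.00299).

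Egr1, the most widely used marker of this family, read 5.86, 5.57 and 6.71 at 0 weeks, 8.04, 7.54 and 7.47 at 3 weeks, 7.40, 7.77 and 6.91 at 12 weeks and 7.03, 7.27 and 7.40 in GnT-IX-deficient mice. Replicate 3 was the highest untreated array, yet it lay below all arrays from mice fed cuprizone. Egr1 rose by 1.64 at 3 weeks (SE 0.28, adjusted p = 0.00551) and by 1.31 at 12 weeks (SE 0.28, adjusted p = 0.0223).

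Egr3, another member of the family, read 6.73, 6.66 and 6.40 at 0 weeks, 6.31, 6.51 and 6.50 at 3 weeks, 6.37, 6.29 and 6.39 at 12 weeks and 6.55, 6.47 and 6.18 in GnT-IX-deficient mice. The 12-week arrays all lay below the untreated ones, but only just. Differences from 0 weeks were -0.16 at 3 weeks (95% interval -0.50 to 0.19, adjusted p = 0.709) and -0.25 at 12 weeks (95% interval -0.59 to 0.10, adjusted p = 0.535). The brightest Egr3 cluster, used here, and the next carry identifiers that mark them as unmapped, while the dimmest is placed on a chromosome by its identifier. That dimmest cluster averaged 4.25 at 0 weeks, 4.59 at 3 weeks and 4.27 at 12 weeks, so the Egr3 values depend on how the array's annotation names its probes.

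Nr4a1, an orphan nuclear receptor induced with the EGR genes in many cells, read 7.50, 7.27 and 6.64 at 0 weeks, 7.09, 7.20 and 7.27 at 3 weeks, 6.57, 7.28 and 6.94 at 12 weeks and 6.68, 7.31 and 6.97 in GnT-IX-deficient mice. All groups overlapped, and the untreated group spread the most. The 95% interval of the difference from 0 weeks was -0.46 to 0.56 at 3 weeks and -0.72 to 0.30 at 12 weeks.

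Zfp36, whose product destabilises mRNAs such as that of Tnf, read 4.94, 4.51 and 4.80 at 0 weeks, 6.62, 5.79 and 5.0 at 3 weeks, 6.51, 6.73 and 6.30 at 12 weeks and 5.15, 6.31 and 5.53 in GnT-IX-deficient mice. The 3-week arrays were widely spread, from just above the untreated range to the level of 12 weeks. It rose by 1.76 at 12 weeks (SE 0.34, 95% interval 1.04 to 2.49, adjusted p = 0.0139). At 3 weeks the difference was 1.05 (SE 0.34, adjusted p = 0.119), and 1.46 with 3-week replicate 3 left out (adjusted p = 0.0281), with adjusted p over the 16 alternatives from 0.0281 to 1.

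Ier2, a small nuclear protein gene of the early response, was the dimmest member, at 4.75, 4.53 and 4.52 at 0 weeks, 5.68, 4.94 and 5.24 at 3 weeks, 5.42, 6.04 and 5.13 at 12 weeks and 4.77, 5.36 and 5.13 in GnT-IX-deficient mice. Untreated arrays lay below all others, though replicate 1 of the GnT-IX-deficient group almost met them. Its differences of 0.69 at 3 weeks (SE 0.24, adjusted p = 0.161) and 0.93 at 12 weeks (SE 0.24, adjusted p = 0.0583) did not pass. Every member averaged above the arrays' lower quartile, which was 3.73 to 3.85, in each group.

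The groups can also be put in order by their means. The untreated group was the lowest for 8 of the 10 genes, all but Egr3 and Nr4a1. In the dimmest Egr3 cluster, not used here, it was the lowest, at 4.25. The 3-week, 12-week and GnT-IX-deficient groups averaged 4.59, 4.27 and 4.35 there. The 12-week wild-type group was the highest for Fos, Fosb, Junb, Ier2 and Zfp36, and the 3-week group for Jun, Egr1, Egr2 and Nr4a1. GnT-IX-deficient mice were in the second lowest place for 9 genes and highest for 0. These orders were counted for the members only, so they have no share of all genes beside them. Among the groups fed cuprizone, the 12-week wild-type group was tested against each of the other 2, and no member passed. GnT-IX-deficient mice, which stand next to the 3-week group in the order of several genes, were not tested against it.

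The first comparison set 3 weeks of cuprizone against none in wild-type mice. Of the 10 genes, 4 rose and 0 fell, where 3.24% of all genes passed in either direction, 1.61% higher and 1.63% lower. In 8 genes all 3-week arrays lay above all untreated arrays, against 10.8% of all genes, and in 0 all lay below, against 10.5%. The median difference over the 10 genes was 1.02 on the log2 scale, and -0.017 over all genes tested. The Fosb call was the least firm: it was lost in 10 of 16 alternatives, among them those that left out any one untreated array (replicates 1, 2 and 3, adjusted p = 0.0954, 0.117 and 0.142) or a 3-week array (replicates 1 and 2, 0.157 and 0.122). Its adjusted p over all 16 ran from 0.0107 to 0.874.

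The second comparison set 12 weeks against none. Here 5 of the 10 genes rose and 0 fell, where 2.64% of all genes passed, 2.11% higher and 0.523% lower. In 7 genes all 12-week arrays lay above all untreated ones (10.8% of all genes), and in Egr3, by the cluster used, all lay below (9.95%). The median difference was 1.20, against -0.013 over all genes. Only Junb and Egr2 passed once replicate 2 of either group was left out, the untreated or the 12-week one: adjusted p was then 0.0525 and 0.0701 for Fosb (range over the 16 alternatives 0.00438 to 1), 0.0754 and 0.0818 for Zfp36 (0.000389 to 1) and 0.124 and 0.133 for Egr1 (0.00641 to 1). Egr1 was lost, too, when replicate 1 of the untreated group was left out (0.105). The background is itself unsteady: without replicate 2 of the 12-week group 77 of all genes passed, in place of 514. Without replicate 3 of the 12-week group, Fos (1.36, adjusted p = 0.0343, range 0.0216 to 1) and Ier2 (1.13, adjusted p = 0.0460, range 0.0225 to 1) passed.

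**Figure D2:**
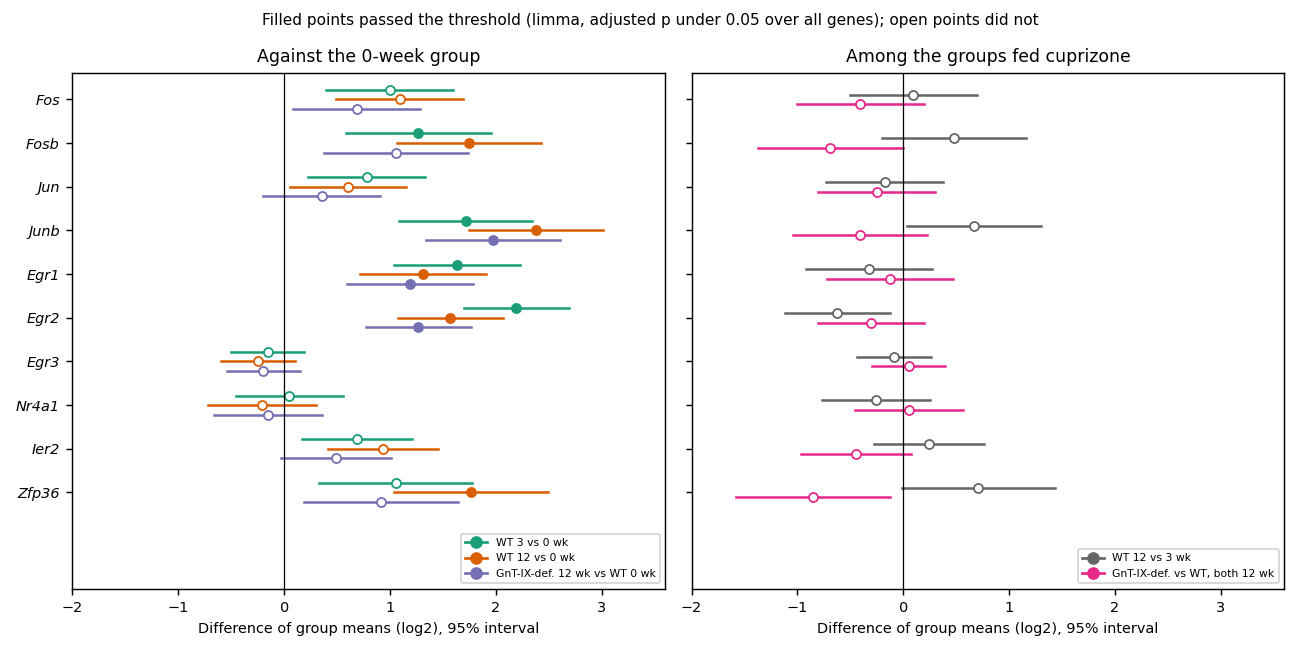
Differences of group means (log2, horizontal axis) with 95% intervals from limma for each of the 10 genes, against the 0-week group on the left and among the groups fed cuprizone on the right; filled points passed the threshold. The filled points, such as Junb at 2.38 and Egr2 at 2.19, all lie on the left and to the right of 0.

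The third comparison asked whether the levels at 12 weeks differed from those at 3 weeks, and 0 of the 10 passed by limma (2 at an unadjusted p under 0.05), where 0.082% of all genes did, 0.0256% higher and 0.0564% lower. The largest differences went opposite ways. Zfp36 was at 0.71 (95% interval -0.015 to 1.44) and Junb at 0.67 (95% interval 0.035 to 1.30), while Egr2 was at -0.62 (95% interval -1.12 to -0.12, adjusted p = 0.312). In all 10 genes the arrays of the groups overlapped, where 7.83% of all genes lay wholly above and 8.1% wholly below, and the median difference was 0.0017.

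The fourth comparison set GnT-IX-deficient against wild-type mice, both at 12 weeks. No untreated GnT-IX-deficient mice were analysed here, so a difference present before the diet cannot be told from a different response to it. No member passed by limma (2 of 10 at an unadjusted p under 0.05), where 0.0256% of all genes did, 0.0205% higher and 0.00513% lower. Differences were negative for 8 of the 10 genes, with a median of -0.36 against -0.013 over all genes. The largest were those of Zfp36, at -0.85 (SE 0.34, 95% interval -1.58 to -0.12, adjusted p = 0.639), and Fosb, at -0.69 (SE 0.32, 95% interval -1.37 to -0.0064, adjusted p = 0.713). For Egr1 the interval was -0.72 to 0.47 and for Junb -1.04 to 0.22, so differences of either sign remain within the error. Arrays of the groups overlapped in every member, where 5.27% of all genes lay wholly above and 5.57% wholly below. Microglia markers differed in the same direction, with a median of -0.61 over 14 genes of which 0 passed (0 at an unadjusted p under 0.05), and choroid plexus markers read 8.11, 7.08 and 5.43 in GnT-IX-deficient replicates 1, 2 and 3 against 4.20 to 5.89 in the wild-type arrays. The part of either list in these differences was not tested. A fit with the microglia mean as a covariate is given below. That mean comes from the same arrays, so the fit does not measure a contribution of microglia.

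Against untreated wild-type mice, a comparison in which genotype, diet and age all differ, Junb (1.97, SE 0.30, adjusted p = 0.00443), Egr2 (1.27, SE 0.23, adjusted p = 0.0116) and Egr1 (1.19, SE 0.28, adjusted p = 0.0300) rose in GnT-IX-deficient mice. These are 3 of the 10 genes, where 4.11% of all genes passed, 2.41% higher and 1.7% lower, a split of 470 to 331 genes that became 395 to 419 with arrays centred on their medians. In 7 genes the arrays lay wholly above the untreated ones (12% of all genes) and in 0 wholly below (13.1%). It shares the untreated arrays with the first and second comparisons, so the rises are not independent of those. Without replicate 1 of the 0-week group or replicate 2 of the GnT-IX-deficient group only Junb passed, with Egr2 at adjusted p = 0.0638 and 0.0571 (range 0.00266 to 0.782) and Egr1 at 0.129 and 0.10 (range 0.0104 to 0.872). Egr1 was also lost without replicate 2 of the 0-week group (0.137) or replicate 3 of the GnT-IX-deficient group (0.0977).

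Within the groups fed cuprizone, many of the genes had their highest or lowest value on the same array. Replicate 2 of the 12-week group was the highest of its group for 9 of the 10 genes, and replicate 3 the lowest for 7. At 3 weeks replicate 3 was the lowest for 7, with the highest values split between replicate 1 (5 genes) and replicate 2 (4 genes), and in GnT-IX-deficient mice replicate 1 was the lowest for 9 and replicate 2 the highest for 7. The untreated arrays were mixed: replicate 1 was the highest for 6, and replicate 3 the lowest for 5 but the highest for 3. Highest and lowest arrays were not counted over all genes, so a trait of the whole array cannot be told apart here. The mean over the 10 genes was 5.97, 5.80 and 5.87 at 0 weeks, 7.15, 6.98 and 6.58 at 3 weeks, 6.88, 7.40 and 6.65 at 12 weeks and 6.38, 6.90 and 6.64 in GnT-IX-deficient mice.

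Markers of microglia moved with these levels. Their mean over 14 genes was 5.68, 5.11 and 5.34 at 0 weeks, 8.96, 7.05 and 6.59 at 3 weeks, 7.96, 9.05 and 8.13 at 12 weeks and 7.29, 8.31 and 7.77 in GnT-IX-deficient mice. In all 4 groups the array with the highest microglia mean was also the one with the highest mean of the immediate early genes, and in 3 groups, all but the 12-week wild-type group, the order of the 3 arrays was the same. Of the 14 markers, 10 rose at 3 weeks and 12 at 12 weeks. None of their group means was at 0, and Aif1, at 2.34 in untreated mice, was the only one below the arrays' lower quartile, while the defining genes P2ry12, Cx3cr1 and Tmem119 averaged 6.64, 5.36 and 6.19 there.

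Some astrocyte markers fell. Their mean over 14 genes was 9.37 to 9.70 at 0 weeks, 8.61 to 8.97 at 3 weeks, 8.89 to 9.37 at 12 weeks and 8.60 to 9.20 in GnT-IX-deficient mice. At 3 weeks 7 of the 14 fell and 1, Gfap, rose, and at 12 weeks 1 fell and 1 rose, so that 12 did not pass. Slc1a3, which encodes GLAST, averaged 8.35 at 0 weeks and 7.0, 7.30 and 7.27 in the other groups. Endothelial markers averaged 5.73 at 0 weeks and 6.73 at 12 weeks, with 4 of 10 past the threshold there, all higher, and 0 of 10 at 3 weeks (limma, 1 at an unadjusted p under 0.05). Neuron markers ranged from 6.30 to 6.96 at 0 weeks and from 6.65 to 7.30 at 3 weeks, where 2 of 10 rose, and from 6.43 to 6.64 at 12 weeks, where 0 passed by limma (1 at an unadjusted p under 0.05). Mature oligodendrocyte markers averaged 9.74 at 0 weeks and 8.95 at 12 weeks, where 2 of 10 fell, and border macrophage markers 4.39 and 5.61, where 1 of 5 rose. Oligodendrocyte precursor markers averaged 9.24 at 0 weeks, 9.81 at 3 weeks and 9.35 at 12 weeks. Of these 7 genes 0 passed by limma at 3 or 12 weeks (4 and 2 at an unadjusted p under 0.05). The part of these lists in the results was not tested. Which cells the immediate early transcripts came from was not measured.

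**Figure D3:**
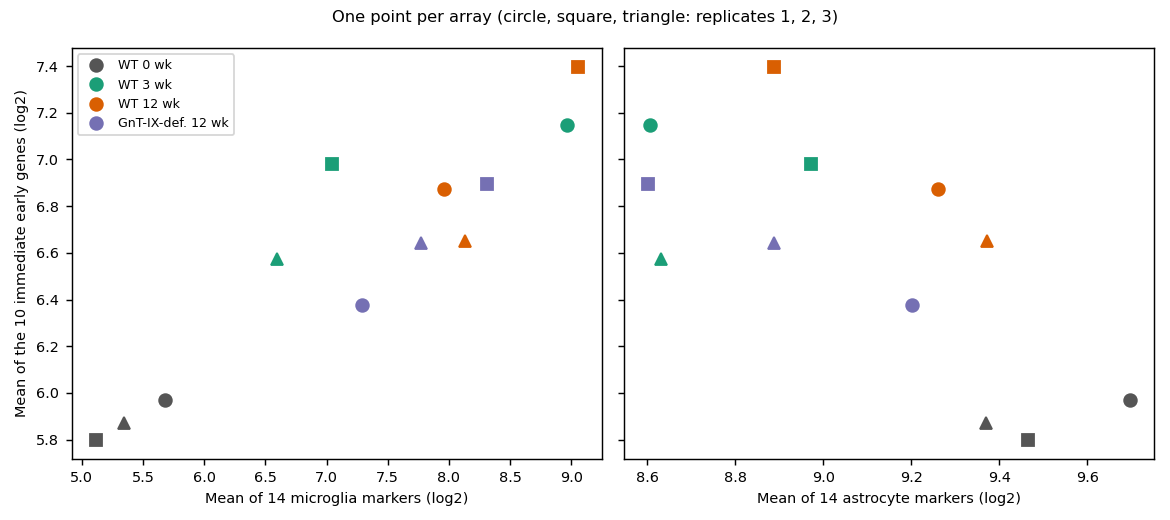
Mean of the 10 immediate early genes (log2, vertical axis) against the mean of 14 microglia markers on the left and 14 astrocyte markers on the right (log2, horizontal axes), 1 point per array. The untreated arrays lie at the lower left on the microglia axis, and replicate 2 of the 12-week group, at 9.05 and 7.40, at the upper right.

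With the microglia mean of each array added to the fit as a covariate, 0 of the 10 genes passed in any of the 5 comparisons (limma, 1 to 3 per comparison at an unadjusted p under 0.05). Of all genes, 3 passed at 3 weeks and 0 at 12 weeks, against 632 and 514 without the covariate. Between 12 and 3 weeks 0 passed, against 16, and between the genotypes 5 with and without it. The loss is thus not particular to these genes. Untreated arrays all had a lower microglia mean than the others, so the covariate overlaps with the groups. Against 0 weeks, 9 of the 10 differences were smaller in size at 3 weeks and 9 at 12 weeks, and the SE was larger for 9 and 10 of the genes. The exception in size was Nr4a1, at -0.22 and -0.59. The SE grew by a median over all genes of 1.61 times at 3 weeks and 2.02 times at 12 weeks. At 3 weeks Egr2 was then at 1.61 (SE 0.33, 95% interval 0.91 to 2.31, adjusted p = 0.128), Egr1 at 1.01 (SE 0.40) and Junb at 0.85 (SE 0.39). Zfp36 went from 1.05 to -0.30 (SE 0.32) and Ier2 from 0.69 to -0.089 (SE 0.30). The median of the 10 genes went from 1.02 to 0.25 at 3 weeks, and from 1.20 to 0.038 at 12 weeks. At 12 weeks Junb was at 1.18 (SE 0.48) and Egr2 at 0.75 (SE 0.41), against -0.12 (SE 0.40) for Zfp36. Between the genotypes 9 of the 10 differences were smaller and the SE was larger for 2 genes; the median went from -0.36 to -0.16, with Zfp36 at -0.48 and Fosb at -0.47. Between 12 and 3 weeks 5 differences were smaller and 5 larger, among them Egr2, from -0.62 to -0.85. At 3 weeks the values of the remaining genes with the covariate were 0.46 for Fosb, 0.29 for Fos, 0.22 for Jun and 0.0041 for Egr3. Differences between members in how much they retained were not tested.

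**Figure D4:**
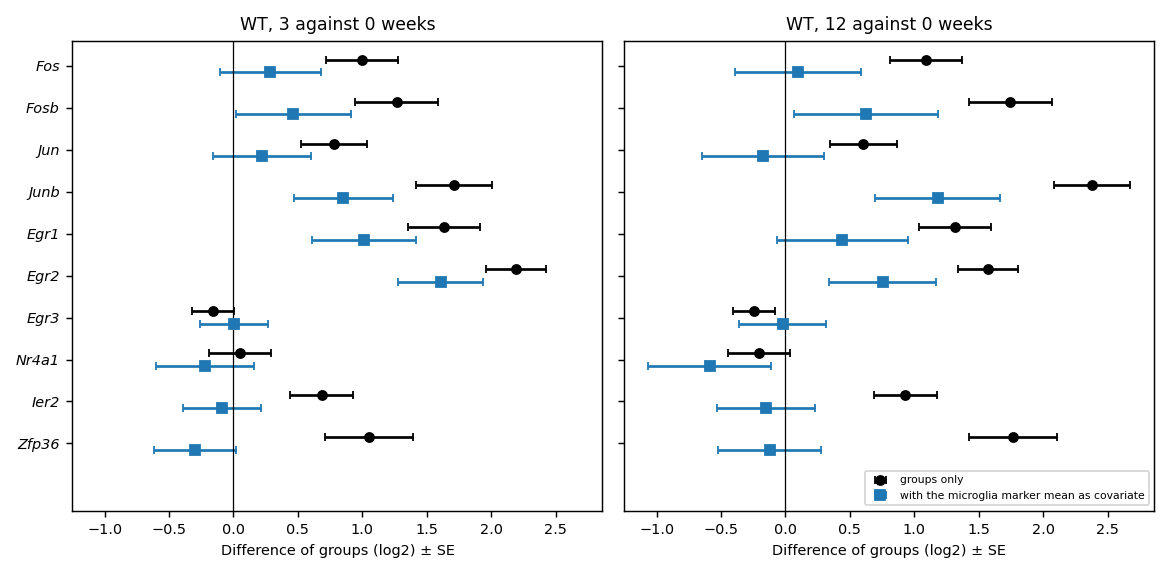
Differences from the 0-week group (log2 ± SE, horizontal axis) of the 10 genes at 3 weeks (left) and 12 weeks (right), from the fit with groups only (black circles) and with the microglia marker mean as a covariate (blue squares). Egr2 at 3 weeks moves from 2.19 to 1.61, and Zfp36 at 12 weeks from 1.76 to -0.12.

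Genes around this module were examined by lists. Of 10 other AP-1 family and partner genes, 1 rose at 3 weeks and 1 at 12 weeks, in both cases Atf3, a stress-induced partner of the Jun proteins (1.42, SE 0.34, adjusted p = 0.0333, and 1.68, SE 0.34, adjusted p = 0.0170). The medians of that list were 0.088 and 0.28. Of 7 other EGR and NR4A genes and EGR co-repressors, 0 passed by limma in either comparison (1 at 3 weeks and 0 at 12 weeks at an unadjusted p under 0.05), with medians of 0.03 and 0.09.

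Among 9 upstream factors, which include SRF, its partners and CREB, 0 passed at 3 weeks (1 at an unadjusted p under 0.05) and 1 at 12 weeks. This was Elk3, a ternary complex factor, which rose by 1.41 (SE 0.31, adjusted p = 0.0255). Of 9 MAP kinase phosphatases and feedback inhibitors, which are transcribed in response to the same kinases, 0 passed at 3 or 12 weeks by limma (0 and 2 at an unadjusted p under 0.05). Their medians were 0.17 and -0.037.

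Of 25 other immediate early genes, 5 rose and 2 fell at 3 weeks. Gadd45b, a stress sensor gene, rose by 2.39 (SE 0.31, adjusted p = 0.00119) and Phlda1 by 1.39 (SE 0.31, adjusted p = 0.0257). Ccn1, a matricellular protein gene, fell by 1.18 (SE 0.22, adjusted p = 0.00965) and Bhlhe40, a repressor of clock genes, fell by 0.84 (SE 0.17, adjusted p = 0.0170). The other 18 did not pass, and the list median was 0.14. At 12 weeks 2 of the 25 rose, Gadd45b (2.20, SE 0.31, adjusted p = 0.00181) and the antiproliferative gene Btg2 (1.23, SE 0.24, adjusted p = 0.0163), and 0 fell.

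A list of 9 genes held NF-kB feedback genes, relatives of Zfp36 and targets of its product. At 3 weeks the cytokine genes Il1b (3.13, SE 0.52, adjusted p = 0.00471) and Tnf (2.15, SE 0.48, adjusted p = 0.0233) rose, and 7 of the 9 did not pass. At 12 weeks Il1b (3.99, SE 0.52, adjusted p = 0.00131), Tnf (2.54, SE 0.48, adjusted p = 0.0115) and Tnfaip3, an NF-kB inhibitor gene (2.55, SE 0.55, adjusted p = 0.0234), rose. These 3 averaged 3.95, 3.80 and 3.84 at 0 weeks, next to the arrays' lower quartile, which leaves the size of each rise uncertain. Myeloid cells express all of them, and the microglia means given above moved in the same direction. The part of myeloid cells in these rises was not tested.

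Of 7 heat shock genes that also respond to tissue dissociation, Hsp90aa1 rose at 3 weeks (0.85, SE 0.19, adjusted p = 0.0226) and Hspb1 at 12 weeks (1.15, SE 0.27, adjusted p = 0.0337), with list medians of 0.49 and 0.22. Differences were positive for 7 genes at 3 weeks and 6 at 12 weeks, with 4 and 2 at an unadjusted p under 0.05 by limma. In 4 genes all 3-week arrays lay above all untreated ones, against 10.8% of all genes. The part of tissue dissociation in the results was not tested. In GnT-IX-deficient mice against 12-week wild-type mice, 0 genes of these 7 lists passed by limma, and from 0 to 3 per list had an unadjusted p under 0.05. The largest median was that of the NF-kB and Zfp36 list, -0.68, with 3 of 9 at an unadjusted p under 0.05.

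**Figure D5:**
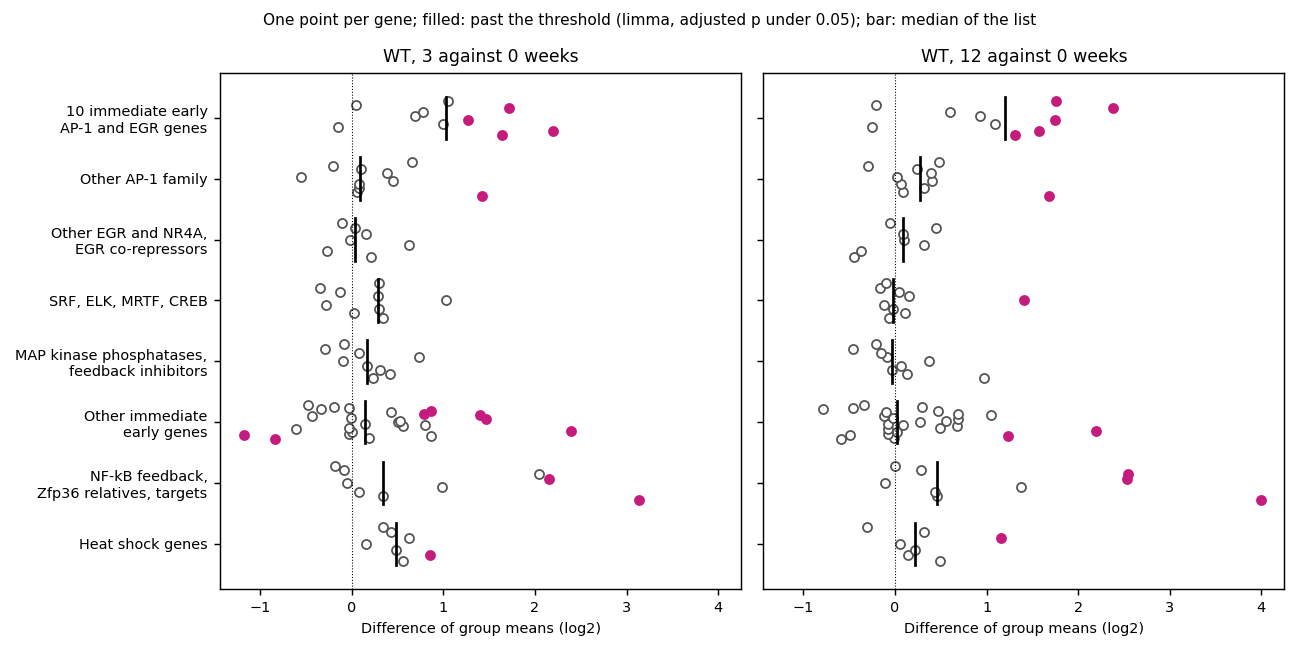
Differences from the 0-week group (log2, horizontal axis) at 3 weeks (left) and 12 weeks (right) for the 10 immediate early genes and 7 related lists, 1 point per gene, filled where past the threshold, with a bar at each list's median. The median of the 10 genes is 1.02 and 1.20, and the other medians lie between -0.037 and 0.49.

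To find genes with a like course, each gene's profile over the 12 arrays was centred on its own mean and set against the mean profile of the 10 genes by the root mean square difference. Each member is itself part of that mean profile, which favours the members in the ranks. Among the members Fos was the nearest (0.160 log2 units, rank 1 of all genes), followed by Ier2 (0.205, rank 4) and Jun (0.245, rank 20), while Junb (0.551), Egr3 (0.594) and Nr4a1 (0.550) lay far from the mean profile. Junb did so through a larger range and the other 2 through a flat course. Outside the 10, the nearest were Rap1b, a small GTPase gene (0.196), Pabpc1, a poly(A) binding protein gene (0.199), Cttnbp2nl (0.206), Tm6sf1 (0.226) and Fbxw4 (0.228). Their differences at 12 weeks were 0.96, 1.24, 0.88, 1.29 and 1.17. Likeness was measured over 12 arrays in 4 groups and says nothing of shared control.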

How the data were processed

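Per the submitters' processing notes, RMA in Affymetrix Expression Console 1.4 was what the authors used to summarise the arrays. The deposited values are log2 and were used as given. RMA compresses differences of dim genes. No build for the array was named in the sources. Of 22206 transcript clusters, 19572 had 1 symbol and 2634 are unnamed here. The brightest cluster over the 12 arrays stood for each of 55 genes with several, which left 19505 genes.

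The test was limma 3.58.1 (R 4.3.3) on all 12 arrays together, with a mean for each group, 8 residual degrees of freedom and two-sided p-values adjusted by Benjamini-Hochberg over all genes at 0.05. SE and 95% intervals come from that fit, and SD from 3 arrays. The test was tried on simulated data. Alternatives were a second quantile normalization, median centring, averaged clusters, leaving out the dimmest 30%, array weights, a trended robust variance, a fit on the 6 compared arrays alone, replicate number as a block, the microglia covariate, a minimum log2 change of 0.5, and leaving out each array. Besides the members, the rule named Slc1a3, Gfap and Mgat5b, up to 4 genes past the threshold per list and comparison with the smallest p, and the 5 genes nearest in profile. Microglia markers and their covariate values are given outside that rule. The members, lists and tests were chosen with earlier results of these data known. Figures were drawn with matplotlib 3.10.9.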

Additional observations from a re-analysis of the deposited data

How the results depend on the processing

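Egr2 at 3 weeks and Junb at 12 weeks against 0 weeks passed in all 16 alternatives but the microglia covariate. With that covariate the members past the threshold numbered 0, against 4 at 3 weeks, 5 at 12 weeks and 3 in GnT-IX-deficient against untreated mice. Over all genes the counts in these comparisons went from 632, 514 and 801 to 3, 0 and 3, so nearly every call was lost. The larger SE and the smaller differences both enter that loss. Tested against a minimum log2 change of 0.5, 1 member passed in each of these comparisons, where 47, 68 and 36 of all genes did. Leaving out each array gave 3 to 6 members at 3 weeks, 2 to 7 at 12 weeks and 1 to 3 in GnT-IX-deficient against untreated mice, and 0 in the comparisons among groups fed cuprizone. The count over all genes, from which the background shares come, moved more when single arrays were left out: from 632 to between 192 and 643 at 3 weeks (192 without 0-week replicate 1), from 514 to between 77 and 504 at 12 weeks, from 801 to between 98 and 1062 in GnT-IX-deficient against untreated mice (98 without 0-week replicate 1), from 16 to between 0 and 146 between 12 and 3 weeks (146 without 3-week replicate 1) and from 5 to between 3 and 49 between the genotypes (49 without GnT-IX-deficient replicate 3). Signs turned with the covariate at 3 weeks for Egr3 (0.0041), Nr4a1 (-0.22), Ier2 (-0.089) and Zfp36 (-0.30), and at 12 weeks for Jun (-0.17), Ier2 (-0.15) and Zfp36 (-0.12). Between 12 and 3 weeks they turned for Fos (-0.19) and Ier2 (-0.062), between the genotypes for Egr1 (0.045), and in GnT-IX-deficient against untreated mice for Fos (-0.11), Jun (-0.27), Ier2 (-0.38) and Zfp36 (-0.60). None of these passed the threshold. Leaving out arrays turned the sign of differences near 0, with these ranges: Nr4a1 at 3 weeks, -0.20 to 0.23; between 12 and 3 weeks Fos, -0.22 to 0.36, Jun, -0.44 to 0.14, and Ier2, -0.012 to 0.44; between the genotypes Jun, -0.57 to 0.017, Egr1, -0.35 to 0.078, Egr3, -0.025 to 0.16, and Nr4a1, -0.12 to 0.23; and Nr4a1 in GnT-IX-deficient against untreated mice, -0.40 to 0.032. Deviations from the group means were correlated between samples of different groups. For samples that share a replicate number the median r was 0.048 (-0.28 to 0.22 over 18 pairs, 6 of them over 0.1). For other pairs it was -0.041 (-0.30 to 0.34 over 36 pairs, 8 of them over 0.1). With 3 arrays a group, these values do not settle whether the number pairs samples. With the replicate block, 5 members passed at 3 weeks, 6 at 12 weeks and 4 in GnT-IX-deficient against untreated mice, and 0 in the other comparisons. Of all genes, 543, 442 and 817 passed in the first 3 of these, 15 between 12 and 3 weeks and 5 between the genotypes. Signal over background was not measured, so the smallest level that these arrays detect is not known here.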
